A study of Homo sapiens with 24 samples.

Results

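The 10 surface proteins by which malignant plasma cells are recognised, fed or targeted by antibodies and engineered T cells were followed at the RNA level. The genes were TNFRSF17 (BCMA), TNFRSF13B (TACI), SDC1 (CD138), SLAMF7, CD38, FCRL5, GPRC5D, CD47, IL6R and IL6ST (gp130). They are 10 of the 26249 genes with an entry. The rule lists them by name and uses no measured value, but it was set with earlier results of these data known. Of the 10 members, 9 passed the filter on low values and were tested; FCRL5 did not pass it. The RNA came from H929 and MM1S cells, both established lines grown from human multiple myeloma, in 24 libraries. The cells received DMSO, the vehicle, or YKL-5-124, called YKL here, a compound known by a code name and directed at the transcription and cell cycle kinase CDK7. Harvests were at 6 h and at 24 h. The 8 groups, with 3 libraries in each, were H929 with DMSO, H929 with YKL, MM1S with DMSO and MM1S with YKL, each at both times. H929 cultures carried a dose label of 83 nM and MM1S cultures one of 98 nM, on the DMSO labels as well, so that dose and line cannot be told apart. Each side of the line comparison is a single cell line, and nothing in the labels says that the 3 libraries of a group came from separate cultures. The p-values therefore measure the spread between these libraries, which may be technical.

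Plasma cells lose most of the surface of the B cell and keep a small set of receptors. TNFRSF17 and TNFRSF13B bind the cytokines BAFF and APRIL, which sustain long-lived plasma cells, and gamma-secretase cleaves TNFRSF17 off the membrane. SDC1 is a heparan sulfate proteoglycan that holds growth factors and APRIL at the cell surface and is the standard marker of plasma cells. IL6R binds interleukin 6 and signals through IL6ST to JAK kinases and STAT3, a growth pathway of myeloma. SLAMF7 is a receptor of the SLAM family, CD38 an enzyme that consumes NAD, and both are bound by approved antibodies. CD47 tells macrophages not to engulf the cell through their receptor SIRPA, and FCRL5 and GPRC5D are targets of newer bispecific antibodies and T cell therapies.

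Values are FPKM as the authors deposited them, in units scaled per gene length and library, in which added ERCC spike-in RNAs were nearly level across libraries. On this scale a library with less RNA in all its genes shows lower values throughout, and fewer cells cannot be told apart from less RNA per cell. Each gene is therefore also given after rescaling, in which every library was divided by 1 number so that the typical gene was level. That number ranged from 0.361 to 2.02. It averaged 1.85 in H929 with DMSO at 6 h, 1.63 with YKL at 6 h, 1.75 with DMSO at 24 h and 1.01 with YKL at 24 h. In MM1S the same averages were 1.15, 0.831, 0.533 and 0.416. The spike-ins were uneven in 2 libraries, MM1S YKL 6 h replicate 2 and MM1S DMSO 24 h replicate 1, and the deposited scale is less certain there. Of 7 plasma cell markers with an entry all 7 passed the filter, against 2 of 9 for T cells and 2 of 10 for monocytes. For epithelial cells and fibroblasts 2 of 10 passed, and for mature B cells 2 of 6. CD3D, CD14, LYZ, EPCAM and MS4A1 stayed under 1 FPKM in all 24 libraries, while S100A9 and KRT18 reached 34.0 and 33.2 FPKM. Of the T cell markers, CD3E reached 1 FPKM in 14 libraries (up to 3.76) and CD3G in 4. Of the mature B cell markers, BACH2 did so in 23 (up to 4.13) and CIITA in 9 (up to 3.47). Monocyte markers summed to 8.38 to 37.8 FPKM in H929 libraries and 1.15 to 6.63 in MM1S libraries, and epithelial and fibroblast markers to 9.55 to 34.4 and 0.973 to 2.32, so both move with the line. T cell markers summed to 1.09 to 5.30 and mature B cell markers to 1.93 to 6.29 over all libraries, and the part of other cell types in the results was not tested.

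Promoter sequences are shown for the members on which the results turn: SDC1 and IL6R, which carry the YKL results, and TNFRSF13B, which has the largest line difference of the 9 members tested. They were taken from a set of RefSeq promoters (GRCh38.p14). The set used held 8 of the 10 members, without TNFRSF17 and SLAMF7. The sequences are the 250 bases before the gene's start, 5′ to 3′ on the strand of the gene. None is from the hg19 build of the expression files. For SDC1 the window before the first of its start sites is given. Capitals mark GC boxes (GGGCGG on either strand).
SDC1 (chr2:20225476-20225725, minus strand): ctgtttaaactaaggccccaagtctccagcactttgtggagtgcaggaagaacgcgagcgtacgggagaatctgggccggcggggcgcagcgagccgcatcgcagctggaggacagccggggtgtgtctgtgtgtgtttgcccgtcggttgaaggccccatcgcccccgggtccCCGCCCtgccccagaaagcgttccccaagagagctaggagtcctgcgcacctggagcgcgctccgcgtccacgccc
IL6R (chr1:154405093-154405342, plus strand): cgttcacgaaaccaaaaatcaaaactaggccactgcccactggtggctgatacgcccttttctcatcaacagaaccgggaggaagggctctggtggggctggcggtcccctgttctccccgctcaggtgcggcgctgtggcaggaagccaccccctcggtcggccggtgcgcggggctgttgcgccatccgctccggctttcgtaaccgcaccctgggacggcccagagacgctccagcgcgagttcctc
TNFRSF13B (chr17:16972119-16972368, minus strand): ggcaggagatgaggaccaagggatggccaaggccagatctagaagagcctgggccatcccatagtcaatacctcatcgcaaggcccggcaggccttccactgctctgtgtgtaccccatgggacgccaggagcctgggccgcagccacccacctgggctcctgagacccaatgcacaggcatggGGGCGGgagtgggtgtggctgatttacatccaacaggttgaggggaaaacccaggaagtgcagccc
The SDC1 window holds 1 GC box, 76 bases before the start, and the TNFRSF13B window 1, 66 bases before it. IL6R holds none. Among all 35116 promoters of this length, 42.6% hold a GC box. A TATA box (TATAAA), a STAT site (TTCNNNGAA) and an interferon response element were also searched on both strands and are found in 10.7%, 6.57% and 3.02% of all promoters. None of these 3 motifs lies in the windows printed. Among the other members, CD47 holds 6 GC boxes, 2 of which overlap, IL6ST holds 4, and GPRC5D holds 1 GC box and 2 TATA boxes. No STAT site was found in the windows of the 8 members, which says only that these letters are not there.

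Without YKL the lines differed in which of these genes they expressed most. H929 carried more TNFRSF17 and CD38 RNA, MM1S nearly all of the TNFRSF13B RNA and, at 24 h, more GPRC5D and, at 6 h, more IL6ST RNA. At 6 h, 3 members were higher and 2 lower in H929 than in MM1S, against 49.1% of all 12418 genes tested that passed in either direction (36.4% higher, 12.7% lower). At 24 h, 5 were higher and 2 lower, against 73.2% (67.9% higher, 5.36% lower). The 2 lower were TNFRSF13B and GPRC5D, and GPRC5D passed the filter on low values through MM1S libraries alone. Most genes were higher in H929 on this scale: the median difference over all genes was 0.36 on the log2 scale at 6 h and 1.08 at 24 h, and over the members 0.22 and 1.25. After rescaling, 2 members were higher and 5 lower at 6 h, where 53.7% (22.6% higher, 31.1% lower) of all genes passed, and 3 were higher and 6 lower at 24 h, where 58.2% (22.4% higher, 35.8% lower) passed. As deposited, the 5 and 7 of 9 members called are close to the share of all genes. Without overlap of libraries, H929 lay above MM1S for 44.9% of all genes at 6 h and 66.2% at 24 h as deposited. It lay below for 16.4% and 5.43%.

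TNFRSF13B stood at 161, 161 and 106 FPKM in the 3 MM1S libraries with DMSO at 6 h and at 0.739, 0.653 and 1.67 in H929. The groups lie far apart and do not overlap at either time or treatment. In limma the difference of H929 against MM1S was -6.16 ± 0.29 (log2 of FPKM + 1, SE; adjusted p = 9.03e-14) at 6 h and -5.26 ± 0.29 (adjusted p = 1.05e-12) at 24 h. Rescaled, it was -6.32 and -6.53, and 7 of the 12418 genes had a lower value at 24 h. TNFRSF17, the other receptor of BAFF and APRIL, ran the opposite way. It stood at 1367, 1301 and 1696 FPKM in H929 and 588, 571 and 335 in MM1S at 6 h, with no overlap. The difference was 1.58 ± 0.30 (adjusted p = 1.22e-04) at 6 h and 2.85 ± 0.30 (adjusted p = 1.96e-08) at 24 h. It was smaller after rescaling, 0.90 ± 0.15 and 1.06 ± 0.15, and passed there too (limma adjusted p = 4.06e-05 and 4.74e-06).

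The chains of the interleukin 6 receptor were also split between the lines. IL6ST, the signalling chain, stood at 2.25, 2.46 and 3.903 FPKM in H929 against 9.18, 9.04 and 7.78 in MM1S in the 6 h DMSO libraries, a difference of -1.34 ± 0.23 for H929 against MM1S (limma adjusted p = 4.06e-05). At 24 h, with 2.79, 2.91 and 2.49 in H929 and 2.67, 4.82 and 2.12 in MM1S, the groups overlapped and the difference of -0.12 ± 0.23 did not pass (adjusted p = 0.644); rescaled, it was -1.45 ± 0.14 (limma adjusted p = 2.78e-08). IL6R, the ligand-binding chain, stood at 146, 240.0 and 177 FPKM in H929 and 103, 100.1 and 102 in MM1S at 6 h, and all 3 H929 libraries were above all 3 MM1S libraries. The difference was 0.84 ± 0.27 (limma adjusted p = 0.0112), did not pass without H929 DMSO 6 h replicate 2 (highest adjusted p with a library left out = 0.0777), and did not pass after rescaling (0.17, adjusted p = 0.235). At 24 h it was 2.18 ± 0.27 as deposited and 0.41 ± 0.12 rescaled (limma adjusted p = 1.86e-07 and 0.00477). Within a library the IL6R/IL6ST ratio does not depend on the scale. It was 64.8, 97.6 and 45.3 in the H929 DMSO libraries at 6 h and 11.3, 11.1 and 13.1 in those of MM1S, and 79.4, 102 and 91.8 against 15.5, 17.7 and 20.4 at 24 h. Every H929 library, with or without YKL, had a higher ratio than every MM1S library. Since 3′ end reads divided by gene length do not give molar amounts, the ratio compares libraries and not the amounts of the chains.

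CD38, the NAD-consuming enzyme, was the other gene clearly higher in H929, at 9.23, 20.4 and 16.2 FPKM against 1.69, 2.46 and 1.35 in MM1S with DMSO at 6 h. The groups did not overlap. The difference was 2.48 ± 0.31 at 6 h and 3.02 ± 0.31 at 24 h (limma adjusted p = 6.82e-07 and 1.59e-08), and 1.80 and 1.86 rescaled. FCRL5, the Fc receptor-like protein, was near the floor of the files, with 0.305 to 1.12 FPKM in the 12 H929 libraries and 0.0518 to 0.228 in the 12 MM1S libraries. Its 2 ranges do not touch, but only 1 library reached 1 FPKM and the gene was not tested. GPRC5D, an orphan receptor, was also low: 0.513, 0.335 and 0.121 FPKM in H929 against 3.69, 2.58 and 0.521 in MM1S in the 24 h DMSO libraries. The MM1S values were the higher ones, with a difference of -1.16 ± 0.30 as deposited for H929 against MM1S (limma adjusted p = 0.00152) and -1.96 rescaled (adjusted p = 6.77e-05). At 6 h the difference of -0.64 did not pass (limma adjusted p = 0.0819). GPRC5D reached 1 FPKM in 6 libraries, all of them MM1S, and so passed the filter through the line where it is higher. Its line differences are therefore a description, since the p-values do not allow for that filter.

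For SDC1 and CD47 at 24 h the sign of the line difference depended on the scale, and SLAMF7 passed after rescaling alone. SDC1, the plasma cell proteoglycan, stood at 535, 542 and 471 FPKM in H929 against 186, 348 and 155 in MM1S in the 24 h DMSO libraries, higher in H929 by 1.25 ± 0.27 (limma adjusted p = 2.75e-04). Rescaled, it was lower in H929, with -0.54 ± 0.07 (adjusted p = 1.20e-06), and at 6 h the values were 0.22 as deposited (adjusted p = 0.532) and -0.46 rescaled (adjusted p = 8.21e-06). CD47, the signal against engulfment, gave 1.34 ± 0.27 as deposited at 24 h and -0.34 ± 0.14 rescaled (limma adjusted p = 1.09e-04 and 0.0423). That rescaled call at 24 h held in 1 of 6 fits with 1 library left out, the one without MM1S DMSO 24 h replicate 2, and its call at 6 h (-0.34, adjusted p = 0.0437) in 3 of 6, failing without H929 DMSO 6 h replicate 1 or 3 or MM1S DMSO 6 h replicate 3. SLAMF7 gave 0.11 as deposited at 24 h (limma adjusted p = 0.793) and -1.67 ± 0.25 rescaled (adjusted p = 1.22e-05). SDC1 and CD47 were thus higher in H929 on the deposited scale at 24 h and lower in H929 after rescaling. For SLAMF7 the deposited means were 123 ± 14.6 in H929 and 125 ± 59.9 FPKM in MM1S (SD, n = 3), and no deposited direction is given. At 6 h SLAMF7 gave -0.84 (limma adjusted p = 0.0505) and passed without H929 DMSO 6 h replicate 2 (-1.08, adjusted p = 0.0282). There it was lower in H929 without overlap on both scales. It stood at 75.4 to 153 FPKM against 188 to 203 in MM1S as deposited, and at 46.9 to 75.5 against 153 to 198 rescaled. Of all genes, 16.4% and 36.5% lay lower in this way on the 2 scales.

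**Figure D1:**
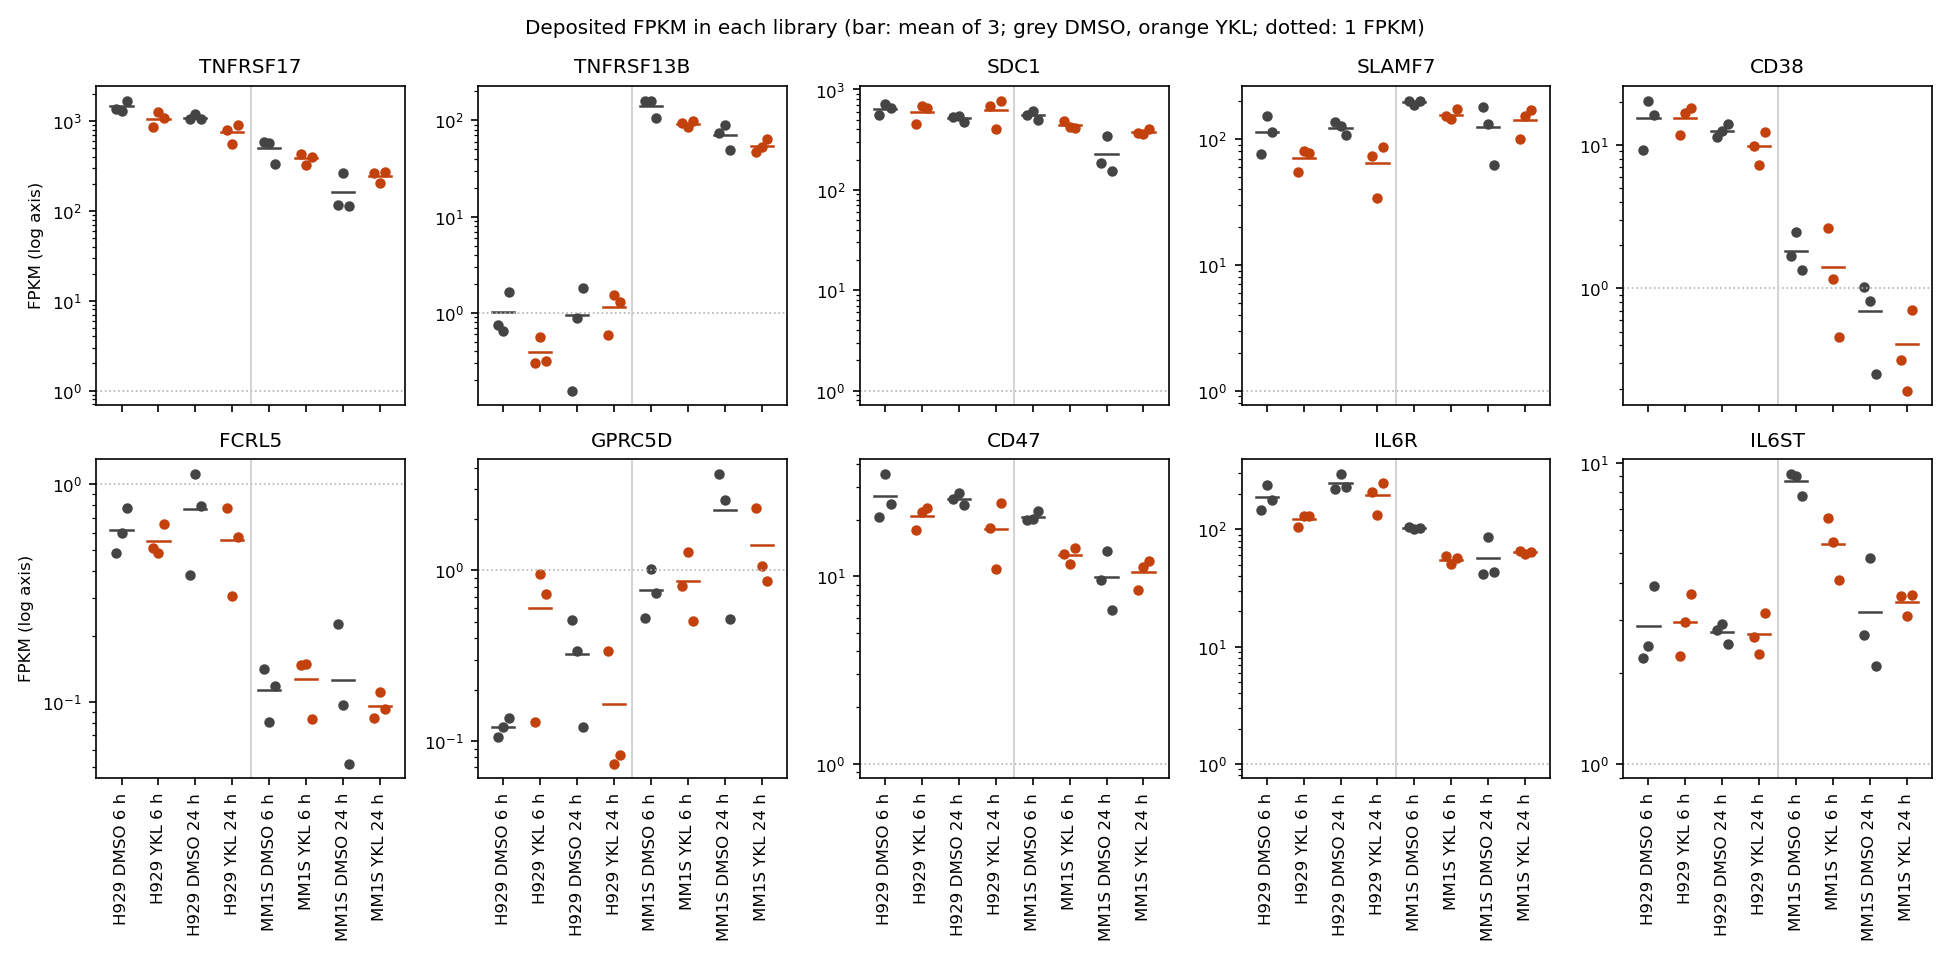
Deposited FPKM of the 10 genes in each of the 24 libraries, on log axes that differ between panels, with DMSO in grey, YKL in orange, a bar at the mean of 3 libraries and a dotted line at 1 FPKM. TNFRSF13B lies between 46.9 and 161 FPKM in every MM1S library and at or under 1.80 in every H929 library, while CD38 lies between 7.22 and 20.4 in H929 and at or under 2.64 in MM1S.

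**Figure D2:**
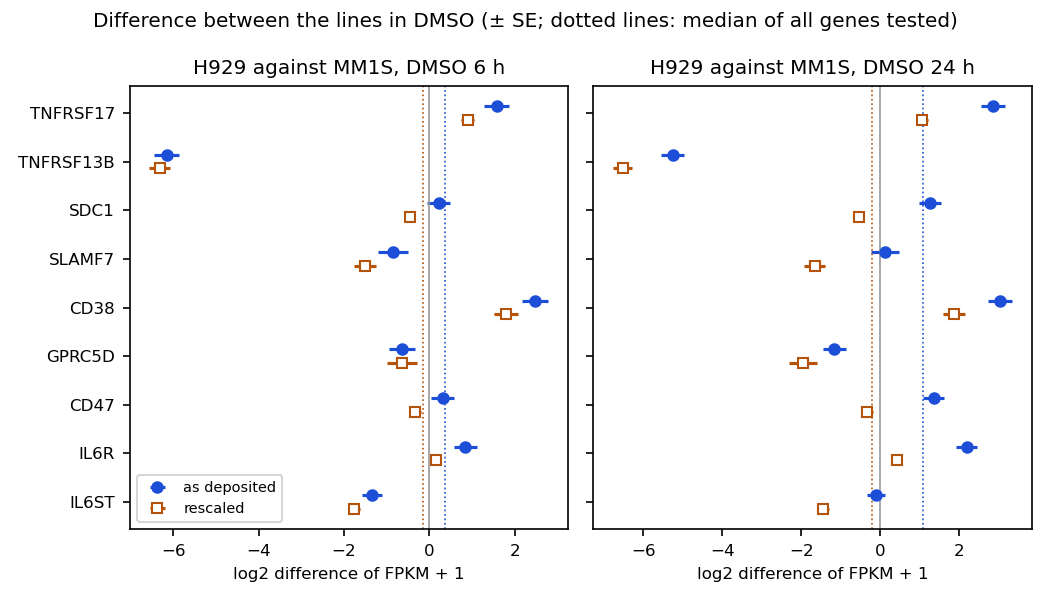
Difference of H929 against MM1S in the DMSO libraries at 6 h and 24 h for the 9 genes tested, in log2 of FPKM + 1 with SE, as deposited (filled circles) and rescaled (open squares); dotted lines are the medians of all 12418 genes on either scale. TNFRSF17 and CD38 lie above 0 and TNFRSF13B and GPRC5D below 0 on both scales, while SDC1 and CD47 change sign between them.

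Ordered by mean deposited FPKM over the 8 groups, most neighbouring groups were not separated beyond their spread. Of 7 neighbouring pairs, the libraries overlapped in 4 for IL6R, in 5 for TNFRSF17, TNFRSF13B, SDC1 and IL6ST, in 6 for SLAMF7, CD38, FCRL5 and CD47, and in 7 for GPRC5D. TNFRSF17 ran from 1455 ± 211 FPKM (SD, n = 3) in H929 with DMSO at 6 h to 164 ± 85.8 in MM1S with DMSO at 24 h, with all H929 means above all MM1S means. SDC1 ran between those same groups, from 644 ± 74.3 to 229.6 ± 104, with the lines mixed in its order. IL6R was highest in H929 with DMSO at 24 h, 249 ± 41.6, and lowest in MM1S with YKL at 6 h, 55.2 ± 4.53. IL6ST was highest in MM1S with DMSO at 6 h, 8.66 ± 0.774, and the 4 H929 groups, all with means under 3 FPKM, filled the lowest places.

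With YKL, few of these genes passed the test on the deposited scale. At 6 h none of the 9 members passed in H929 (0 of 9, 1 with an unadjusted p under 0.05, by limma; 1 with array weights), where 2.19% (1.03% higher, 1.16% lower) of all genes passed, and IL6R alone fell in MM1S, where 11.0% passed (10.0% lower). At 24 h SLAMF7 alone fell in H929, against 38.1% of all genes (35.4% lower), and none of the 9 passed in MM1S (0 by limma, 2 with an unadjusted p under 0.05, 4 with array weights), against 7.46% (0.684% higher, 6.77% lower). Array weights called 4 members in H929 at 24 h (TNFRSF17, SLAMF7 and CD47 lower, SDC1 higher) and 4 in MM1S at 6 h (TNFRSF13B, CD47, IL6R and IL6ST lower), and without the filter on low values both counts were 0. The comparisons between lines and between times use the same DMSO libraries as these. In H929 at 24 h the median change over all genes was -0.46 and over the members -0.35. After rescaling, the same libraries gave a different set. IL6R was lower at 6 h in both lines, and SDC1, IL6R and IL6ST were higher at 24 h in both, with TNFRSF17 and CD47 also higher in MM1S. Of the 9 members, 1 of 9 fell in either line at 6 h, where 9.28% (5.1% higher, 4.19% lower) of all genes passed in H929 and 15.5% (8.25% higher, 7.22% lower) in MM1S. At 24 h, 3 of 9 rose in H929 and 5 of 9 in MM1S, where 33.3% (20.8% higher, 12.5% lower) and 27.8% (14.4% higher, 13.3% lower) of all genes passed.

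SDC1, the plasma cell proteoglycan, did not pass on the deposited scale at 24 h and rose relative to other genes in both lines. In H929 it stood at 535, 542 and 471 FPKM with DMSO and 692, 408 and 777 with YKL at 24 h as deposited, and at 314, 282 and 292 and 645, 614 and 603 rescaled. As deposited the groups overlap, since YKL replicate 2 lies under all 3 DMSO libraries. Rescaled they do not, with YKL above, as for 32.0% of all genes. The change was 0.23 ± 0.27 as deposited (limma adjusted p = 0.539) and 1.07 ± 0.07 rescaled (adjusted p = 8.61e-10). In MM1S the deposited values were 186, 348 and 155 with DMSO and 365, 358 and 399.9 with YKL, and the rescaled ones 422, 435 and 430.3 and 942, 868 and 897. Neither scale shows an overlap, with YKL above, as for 3.3% of all genes as deposited and 19.2% rescaled. The change was 0.79 ± 0.27 as deposited (limma adjusted p = 0.0811), which among the 6 fits with 1 library left out passed in the one without MM1S DMSO 24 h replicate 2, the highest DMSO library (adjusted p = 0.00614), and which passed with array weights (0.98, limma adjusted p = 6.45e-05). It was 1.07 ± 0.07 rescaled (adjusted p = 6.93e-10). The rescaled rise of 2.09-fold in H929 and 2.10-fold in MM1S passed in each of 6 fits per line with 1 library left out. Of the 12418 genes, 4.61% rose more in H929 and 2.17% in MM1S. At 6 h SDC1 had values of 0.07 and 0.14 rescaled and did not pass in either line (limma adjusted p = 0.571 and 0.186).

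IL6R, the interleukin 6 receptor chain, was the member called lower at 6 h. In MM1S it stood at 103, 100.1 and 102 FPKM with DMSO and 58.7, 50.1 and 56.8 with YKL. All YKL libraries were lower, as they were for 36.8% of all genes. The change was -0.88 ± 0.27 (limma adjusted p = 0.0371). It did not pass in any of 6 fits with 1 library left out (adjusted p from 0.0635 to 0.121), which include the fit without the uneven MM1S YKL 6 h replicate 2, nor without the filter on low values (adjusted p = 0.0643). Rescaled it was -0.41 ± 0.12 (limma adjusted p = 0.0200), and passed in 3 of those 6 fits, failing without MM1S DMSO 6 h replicate 3 and without MM1S YKL 6 h replicate 1 or 2. In H929 the values were 146, 240.0 and 177 with DMSO and 105, 129 and 131 with YKL. These were again lower without overlap, as for 12.5% of all genes. There the change of -0.60 ± 0.27 did not pass as deposited (limma adjusted p = 0.277), and the rescaled one of -0.40 ± 0.12 did (adjusted p = 0.0342) in the full fit and in 3 of 6 fits with 1 library left out, failing without H929 DMSO 6 h replicate 2 and without H929 YKL 6 h replicate 2 or 3. At 24 h IL6R stood at 221, 297 and 229 with DMSO and 209.6, 133 and 247 with YKL in H929 and at 41.4, 85.4 and 43.3 and 65.5, 61.6 and 63.9 in MM1S, and the groups overlapped in both lines as deposited. Rescaled, YKL lay above DMSO without overlap, at 192 to 201 against 130 to 155 in H929 and 143 to 169 against 94.1 to 120 in MM1S. Of all genes, 32.0% and 19.2% lay above in this way. The changes were -0.37 ± 0.27 and 0.25 ± 0.27 as deposited (limma adjusted p = 0.282 and 0.716), and 0.46 ± 0.12 and 0.52 ± 0.12 rescaled (adjusted p = 0.00383 and 0.00185). In H929 the sign thus turned with the scale.

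IL6ST, the partner chain, stood at 2.79, 2.91 and 2.49 FPKM with DMSO and 2.64, 2.32 and 3.16 with YKL in H929 at 24 h, with overlapping groups and a change of -0.01 ± 0.23 (limma adjusted p = 0.971). Rescaled it was 0.56 ± 0.14 (adjusted p = 0.00415), and the YKL libraries lay above without overlap, as for 32.0% of all genes. In MM1S the 6 h values were 9.18, 9.04 and 7.78 with DMSO and 6.53, 5.46 and 4.09 with YKL. They were lower with YKL without overlap, as for 36.8% of all genes, and the change of -0.62 ± 0.23 did not pass (limma adjusted p = 0.0808). Its rescaled value at 24 h in MM1S was 0.41 ± 0.14 (adjusted p = 0.0344) and passed in 1 of 6 fits with 1 library left out, the one without MM1S YKL 24 h replicate 2.

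TNFRSF17, the BAFF and APRIL receptor BCMA, stood at 116, 263 and 112 FPKM with DMSO and 262, 203 and 271 with YKL in MM1S at 24 h. DMSO replicate 2 was higher than the other DMSO libraries and lay among the YKL libraries. The change was 0.69 ± 0.30 (limma adjusted p = 0.189), and without that library 1.09 (adjusted p = 0.0136). Rescaled, the DMSO libraries stood at 263, 328 and 312 and the YKL libraries at 674, 491 and 608, a rise of 0.97 ± 0.15 (adjusted p = 6.41e-05) that passed in each of 6 fits with 1 library left out. In H929 at 24 h TNFRSF17 stood at 1049, 1191 and 1044 with DMSO and 798, 549.9 and 909.6 with YKL. All 3 YKL libraries were lower as deposited, as for 45.6% of all genes, and the change of -0.57 ± 0.30 did not pass (limma adjusted p = 0.133). Rescaled it was 0.27 ± 0.15 (adjusted p = 0.181). There all 3 YKL libraries were higher, at 706 to 828 against 615 to 646, as for 32.0% of all genes, so the separation turned with the scale. At 6 h its changes were -0.45 ± 0.30 in H929 and -0.33 ± 0.30 in MM1S (limma adjusted p = 0.517 and 0.496). TNFRSF13B, the second receptor, was measurable in MM1S. There it stood at 161, 161 and 106 with DMSO and 93.5, 85.9 and 98.0 with YKL at 6 h. It was lower in all YKL libraries, as were 36.8% of all genes. The change was -0.59 ± 0.29 (limma adjusted p = 0.192) as deposited and -0.13 ± 0.24 (adjusted p = 0.785) rescaled. At 24 h it was -0.35 and -0.08 and did not pass on either scale (limma adjusted p = 0.603 and 0.854). In H929, where it was near 1 FPKM, its rescaled change at 24 h was 0.54 (adjusted p = 0.0908) and passed without H929 DMSO 24 h replicate 3 and without H929 YKL 24 h replicate 1.

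SLAMF7, the SLAM family receptor, fell in H929 at 24 h from 136, 127 and 107 FPKM with DMSO to 73.2, 34.2 and 86.5 with YKL. Every YKL library was lower, as for 45.6% of all genes, and replicate 2 lowest. The change was -1.02 ± 0.35 (limma adjusted p = 0.0257), passed in 3 of 6 fits with 1 library left out, and reached an adjusted p of 0.210 without YKL replicate 2. It also failed without H929 DMSO 24 h replicate 1 or 2. Rescaled it was -0.19 ± 0.25 (limma adjusted p = 0.628), where the median over all genes was 0.13. Without the filter on low values the deposited change did not pass (adjusted p = 0.0576). In H929 at 6 h it stood at 75.4, 153 and 114 with DMSO and 54.9, 79.9 and 77.2 with YKL, which overlap, with a change of -0.64 ± 0.35 (limma adjusted p = 0.410). In MM1S at 24 h the libraries were widely spread, 181, 131 and 62.0 with DMSO and 100.1, 152 and 172 with YKL, and the change of 0.27 ± 0.35 did not pass (limma adjusted p = 0.780). Rescaled it was 0.55 ± 0.25 (adjusted p = 0.119), and without the uneven MM1S DMSO 24 h replicate 1 and MM1S YKL 6 h replicate 2 it was 0.98 (limma adjusted p = 9.24e-04).

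CD47, the signal against engulfment, stood at 20.0, 20.1 and 22.5 FPKM with DMSO and 13.1, 11.6 and 14.2 with YKL in MM1S at 6 h. All YKL libraries were lower, as for 36.8% of all genes, and the change of -0.65 ± 0.27 did not pass (limma adjusted p = 0.118). In H929 at 24 h it stood at 25.7, 28.0 and 24.0 and 18.1, 11.0 and 24.7, with a change of -0.57 ± 0.27 (limma adjusted p = 0.0952) that passed without YKL replicate 3 (adjusted p = 0.0205). Rescaled, CD47 lay the other way there without overlap, at 16.6 to 19.2 with YKL against 14.6 to 15.1 with DMSO. Of all genes, 32.0% lay above in this way, and the rescaled change of CD47 was not called. Its rescaled rise in MM1S at 24 h, 0.39 ± 0.14 (limma adjusted p = 0.0381), passed in 2 of 6 fits with 1 library left out, those without MM1S DMSO 24 h replicate 1 and without MM1S YKL 24 h replicate 1. CD38 did not pass in any YKL comparison on either scale (limma adjusted p from 0.390 to 0.966 as deposited and 0.306 to 0.941 rescaled). In H929 it stood at 11.3, 12.4 and 13.99 with DMSO and 9.90, 7.22 and 12.2 with YKL at 24 h, overlapping as deposited, a change of -0.35 ± 0.31. Rescaled, the YKL libraries lay above without overlap, at 9.22 to 10.9 against 6.47 to 8.66, as for 32.0% of all genes. GPRC5D did not pass either, with changes of 0.48 and -0.18 in H929 (6 h, then 24 h) and 0.07 and -0.33 in MM1S. Its MM1S change at 24 h moved to -0.81 without MM1S DMSO 24 h replicate 3 and passed there (limma adjusted p = 0.0382). FCRL5 stayed at 0.483 to 0.656 and 0.305 to 0.781 FPKM in the H929 YKL libraries of 6 h and of 24 h, overlapping its DMSO ranges of 0.481 to 0.775 and 0.384 to 1.12.

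**Figure D3:**
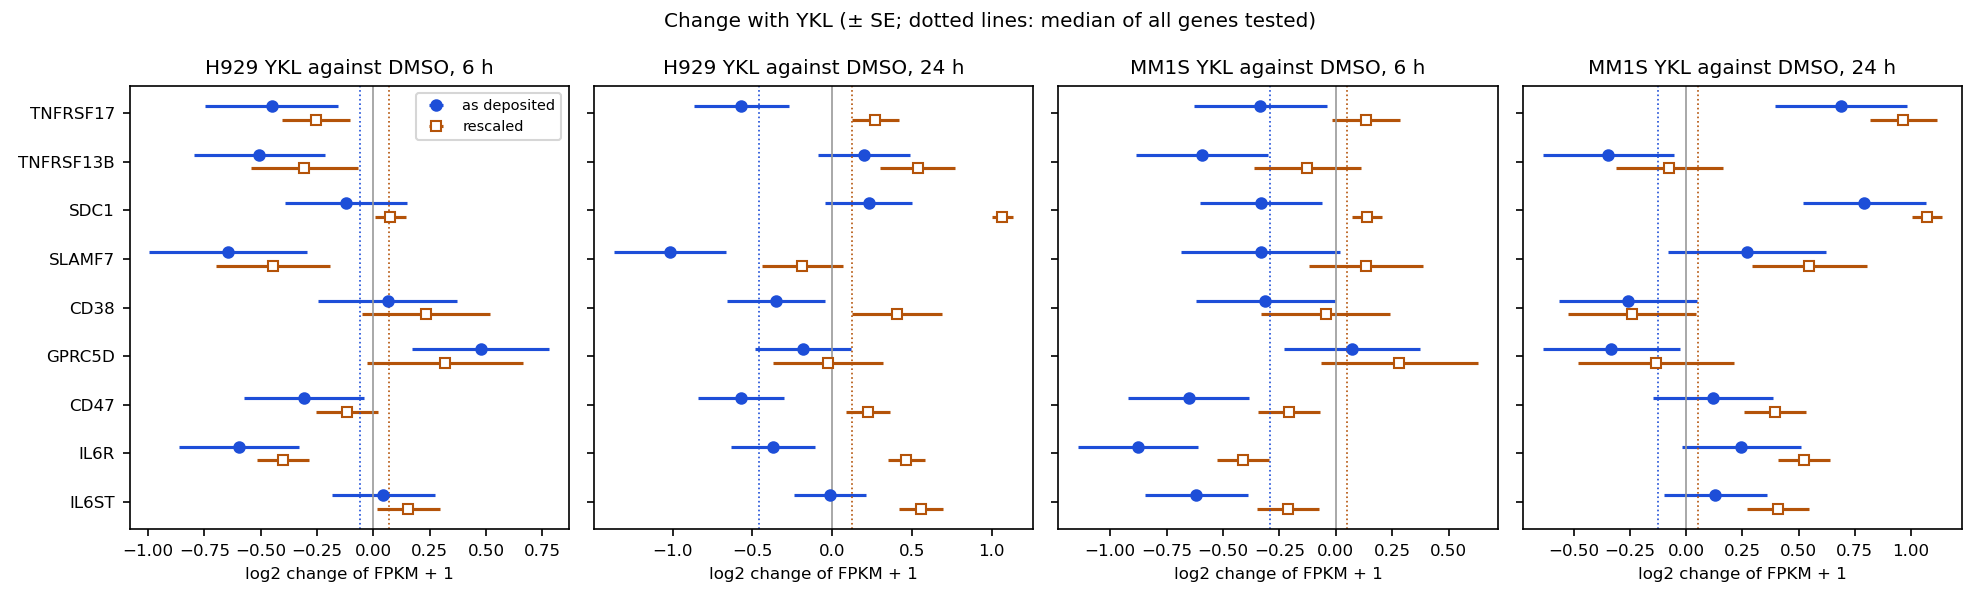
Effect of YKL relative to DMSO on the 9 genes tested (1 panel per line and time), in log2 of FPKM + 1 with SE, as deposited (filled circles) and rescaled (open squares); dotted lines are the medians of all 12418 genes on either scale. SDC1 sits at 1.07 in both 24 h panels after rescaling, and IL6R at -0.40 and -0.41 in the 6 h panels.

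Ratios of members within a library do not depend on either scale and were compared as a description, with no test, since 3 libraries against 3 cannot give an exact permutation p under 0.1. IL6R/SDC1 was lower with YKL in all 4 comparisons without overlap. In H929 it was 0.259, 0.338 and 0.268 with DMSO and 0.234, 0.187 and 0.198 with YKL at 6 h, and 0.414, 0.548 and 0.486 and 0.303, 0.327 and 0.318 at 24 h. In MM1S it was 0.186, 0.164 and 0.206 with DMSO and 0.121, 0.118 and 0.138 with YKL at 6 h, and 0.223, 0.246 and 0.279 and 0.179, 0.172 and 0.160 at 24 h. At 6 h the ratio to SDC1 lay lower without overlap for 15.2% of all genes in H929 and 18.4% in MM1S. At 24 h it did so for 66.3% and 69.9%, so a lower ratio to SDC1 at 24 h was the usual case for a gene and is not particular to IL6R. The reverse, a higher ratio to SDC1, held for 3.61% of genes in H929 and 0.717% in MM1S at 24 h.

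TNFRSF17/SDC1 separated the lines. In H929 at 24 h it was 1.96, 2.20 and 2.21 with DMSO and 1.15, 1.35 and 1.17 with YKL, without overlap. In MM1S it was 0.623, 0.755 and 0.725 and 0.716, 0.566 and 0.678, which overlap. CD47/SDC1 was lower with YKL at 24 h without overlap in both lines, 0.0261 to 0.0318 against 0.0481 to 0.0517 in H929 and 0.0231 to 0.0314 against 0.0394 to 0.0517 in MM1S. SLAMF7/SDC1 was lower in H929 at both times, 0.116 to 0.122 against 0.134 to 0.215 at 6 h and 0.0837 to 0.111 against 0.227 to 0.254 at 24 h. A lower ratio to SDC1 without overlap held at 24 h for 66.3% of all genes in H929 and 69.9% in MM1S. The lower 24 h ratios of TNFRSF17, CD47 and SLAMF7 are thus the usual case and not particular to them. At 6 h in H929 the share was 15.2%. In MM1S with DMSO at 24 h the uneven replicate 1 had a SLAMF7/SDC1 ratio of 0.977, far above the other two at 0.377 and 0.399.

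**Figure D4:**
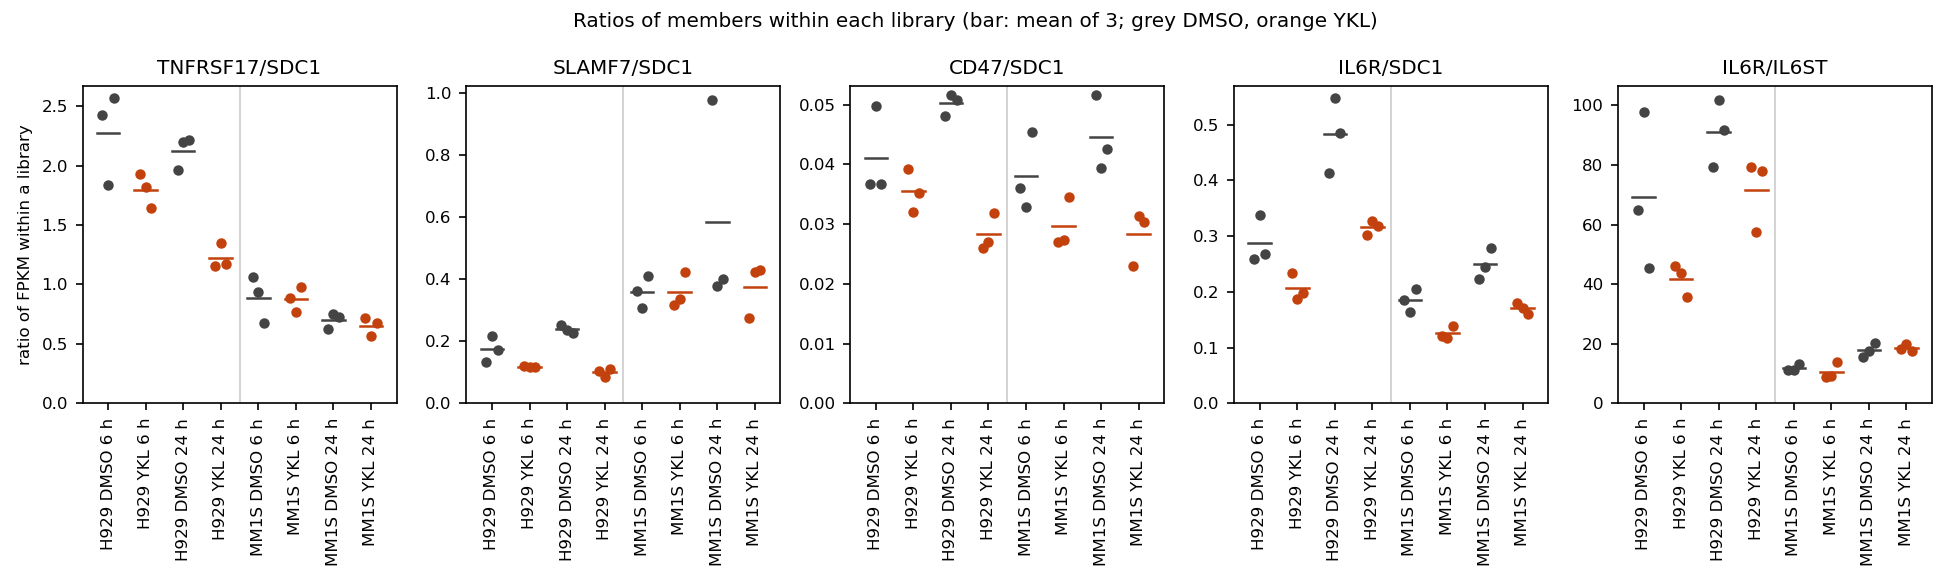
Ratio of deposited FPKM of 2 members within each of the 24 libraries, by group, with DMSO in grey, YKL in orange and a bar at the mean of 3 libraries; all axes start at 0. In the IL6R/SDC1 panel each YKL group lies under its DMSO group, for example 0.303 to 0.327 against 0.414 to 0.548 in H929 at 24 h.

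Whether the response to YKL differed between lines or times was tested as an interaction in the same fit. As deposited none of the 9 members passed in any of the 4 interactions (limma; 0, 2, 0 and 4 with an unadjusted p under 0.05 for the lines at 6 h, the lines at 24 h, the times in H929 and the times in MM1S; 0, 3, 0 and 5 with array weights). Of all genes, 0.169% (0.137% higher, 0.0322% lower) passed for the lines at 6 h and 1.36% (0.29% higher, 1.07% lower) at 24 h. For the times, 6.47% (0.29% higher, 6.18% lower) passed in H929 and 0.0805% (0.0322% higher, 0.0483% lower) in MM1S. Leaving out MM1S DMSO 24 h replicate 2 called TNFRSF17 (-1.66) and IL6R (-0.95) for the lines at 24 h, and TNFRSF17 (1.42), SDC1 (1.47) and IL6R (1.45) for the times in MM1S. For the difference between lines, the values of TNFRSF17 at 24 h were -1.26 ± 0.42 as deposited (limma adjusted p = 0.113) and -0.69 ± 0.21 rescaled (adjusted p = 0.0372), a lower response in H929 than in MM1S. Of all genes, 12.3% passed after rescaling. SDC1 had a line difference of -0.003 ± 0.10 at 24 h rescaled (limma adjusted p = 0.990), so that its 2 rises differed by far less than their error. SLAMF7 gave -0.74 ± 0.36 rescaled (adjusted p = 0.199), and without the 2 libraries with uneven spike-ins -1.17 (adjusted p = 0.00706).

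Between times, SDC1 and IL6R had a higher response at 24 h than at 6 h after rescaling in both lines. The difference for SDC1 was 0.99 ± 0.10 in H929 and 0.93 ± 0.10 in MM1S (limma adjusted p = 2.23e-06 and 3.61e-06). For IL6R it was 0.86 ± 0.16 and 0.93 ± 0.16 (limma adjusted p = 0.00154 and 8.16e-04). In MM1S TNFRSF17 and IL6ST also passed, with 0.83 ± 0.21 and 0.62 ± 0.20 (limma adjusted p = 0.0151 and 0.0496). IL6ST passed in 2 of 12 fits with 1 library left out, and without the 2 libraries with uneven spike-ins neither passed (TNFRSF17 0.66 and IL6ST 0.68, limma adjusted p = 0.0722 and 0.0547). Of all genes, 10.4% passed in H929 and 10.6% in MM1S. The response at each time is taken against the DMSO libraries of that time, so these differences share those controls with the changes given before.

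The DMSO cultures themselves changed with time in MM1S. There 1 of the 9 members was higher at 24 h than at 6 h and 7 were lower, against 0.258% and 56.0% of all genes (56.2% in all). The median over all genes was -0.74 and over the members -1.01. TNFRSF17 stood at 588, 571 and 335 FPKM at 6 h and 116, 263 and 112 at 24 h, a change of -1.67 ± 0.30 (limma adjusted p = 1.83e-04), with all 24 h libraries lower, as for 51.3% of all genes. After rescaling it still passed at -0.49 ± 0.15 (adjusted p = 0.0334), in 3 of 6 fits with 1 library left out (not without MM1S DMSO 6 h replicate 1 or 2 or MM1S DMSO 24 h replicate 1, where it was -0.38 to -0.67 over all 6). GPRC5D was the gene that rose, 0.529, 1.03 and 0.733 at 6 h and 3.69, 2.58 and 0.521 at 24 h. Its groups overlap, since replicate 3 stayed low. The change was 0.75 ± 0.30 as deposited and 1.47 ± 0.35 rescaled (limma adjusted p = 0.0392 and 0.00898), and without the uneven MM1S DMSO 24 h replicate 1, the highest library, it was 0.41 (adjusted p = 0.263) as deposited and 0.96 (adjusted p = 0.0514) rescaled. Most of the 6 libraries in which GPRC5D reached 1 FPKM were of 24 h, and those of 6 h alone were too few for the filter. Its rise and the count of 1 higher member are therefore a description, since the p-values do not allow for that filter. The other 6 called members (TNFRSF13B, SDC1, CD38, CD47, IL6R and IL6ST) had changes between -1.35 and -0.75 as deposited and none passed after rescaling, where 15.6% of all genes passed. As deposited TNFRSF13B failed without MM1S DMSO 24 h replicate 3 (limma adjusted p = 0.0526), and CD38 passed in 3 of the 6 fits with 1 library left out (adjusted p up to 0.210). SLAMF7 passed without MM1S DMSO 24 h replicate 1 (-1.12, adjusted p = 0.0173). In H929 none of the 9 passed between times (0 by limma, 0 with an unadjusted p under 0.05, 0 with array weights), where 0.145% (0.105% higher, 0.0403% lower) of all genes did. After rescaling IL6R was higher at 24 h by 0.51 ± 0.12 (limma adjusted p = 0.0380), which held in 1 of 6 fits with 1 library left out, the one without H929 DMSO 6 h replicate 2, and 1.02% of all genes passed.

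The ligands and partners of these receptors were described from lists. For BAFF and APRIL signalling and the cleavage of TNFRSF17, 14 of 16 genes were tested. With YKL 3 of them fell in H929 at 24 h and 1 rose and 1 fell in MM1S at 6 h (limma). Of all genes, 35.4% fell in H929 at 24 h, and 0.926% rose and 10.0% fell in MM1S at 6 h. After rescaling 5 rose and 2 fell in H929 at 24 h and 3 rose in MM1S at 24 h, where 20.8% and 14.4% of all genes rose. TNFSF13B, which encodes BAFF, rose in MM1S at 6 h from 2.11 ± 0.416 FPKM with DMSO to 5.23 ± 0.953 with YKL (SD, n = 3), by 1.00 as deposited and 1.36 rescaled (limma adjusted p = 0.0172 and 9.42e-05). TRAF5, an adaptor of these receptors, fell there from 7.53 ± 0.688 to 3.78 ± 0.149 (limma adjusted p = 0.0265). TRAF2, another adaptor, fell in H929 at 24 h from 20.2 ± 2.38 to 6.15 ± 2.50, and CAMLG, a binding partner of TNFRSF13B, from 87.7 ± 3.30 to 38.5 ± 13.3 (limma adjusted p = 9.65e-05 and 8.70e-04). Both were lower after rescaling too. APH1A, a subunit of gamma-secretase, fell from 1105 ± 114 to 549 ± 191 as deposited (limma adjusted p = 0.00804) and did not pass rescaled (-0.23, adjusted p = 0.276). Between the lines, TNFSF13, which encodes APRIL, stood at 0.390 ± 0.224 in H929 against 9.07 ± 2.69 in DMSO-treated MM1S at 6 h (difference -2.84, limma adjusted p = 4.00e-08); it was higher in the line with the higher TNFRSF13B.

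For interleukin 6 and gp130 signalling, 22 of 25 genes were tested. With YKL 1 fell in H929 at 6 h, 2 rose and 5 fell in H929 at 24 h, 1 fell in MM1S at 6 h and 1 rose in MM1S at 24 h (limma). Of all genes, 2.67% rose and 35.4% fell in H929 at 24 h and 0.684% rose in MM1S at 24 h; at 6 h 1.16% fell in H929 and 10.0% in MM1S. After rescaling the H929 24 h counts became 12 higher, and that of MM1S at 24 h 8 higher, with none lower, where 20.8% and 14.4% of all genes rose. IL6 itself lay between 0.0575 and 0.163 FPKM in all 24 libraries, at the floor of the files. PIM1, a kinase gene induced by STAT3, fell at 6 h in both lines, from 36.1 ± 1.36 to 17.1 ± 2.33 in H929 and from 96.9 ± 22.2 to 39.3 ± 10.3 in MM1S. The changes were -1.05 and -1.29 as deposited (limma adjusted p = 0.0312 and 0.00335) and -0.84 and -0.83 rescaled (adjusted p = 0.0167 and 0.0122). In H929 at 24 h it was again lower, 7.61 ± 0.814 against 20.5 ± 1.12 (limma adjusted p = 3.81e-04), though not after rescaling (adjusted p = 0.0610). SOCS1, an inhibitor of JAK kinases, rose in MM1S at 24 h from 1.501 ± 0.954 to 4.46 ± 1.02 (limma adjusted p = 0.0306). IL11RA, another receptor chain that pairs with IL6ST, rose in H929 at 24 h from 7.19 ± 1.99 to 17.3 ± 8.05 (limma adjusted p = 0.0109), and PTPN11, a phosphatase bound by IL6ST, fell from 5.61 ± 0.245 to 2.92 ± 0.622 (adjusted p = 0.00662) and did not pass rescaled.

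Among the partners of the other members, 19 of 22 genes for syndecans and heparan sulfate were tested, and 1 passed with YKL as deposited: HS6ST1, a heparan sulfate 6-O-sulfotransferase, fell in MM1S at 6 h from 3.32 ± 0.475 to 1.39 ± 0.241 FPKM (limma adjusted p = 0.00637). Of all genes as deposited, 2.19% and 38.1% passed in H929 at 6 h and 24 h, and 11.0% and 7.46% in MM1S. After rescaling 7 rose in H929 and 4 in MM1S at 24 h, where 20.8% and 14.4% of all genes rose. At 6 h 2 rose in H929, where 5.1% of all genes rose. In MM1S 1 rose and 1 fell at 6 h, where 8.25% rose and 7.22% fell. The sulfatases that trim heparan sulfate separated the lines, with SULF1 at 0.180 ± 0.0296 in H929 against 7.60 ± 0.767 in MM1S in the 6 h DMSO libraries and SULF2 at 9.41 ± 2.41 and 33.9 ± 0.468 (limma adjusted p = 1.43e-10 and 1.32e-05). SULF1, under 1 FPKM in H929 there, may have passed the filter on low values through MM1S alone, so its difference is a description. For CD47, 3 of 7 partners were tested. QPCT, which encodes a glutaminyl cyclase, stood at 0.706 ± 0.242 in H929 against 168 ± 13.1 in MM1S in the 6 h DMSO libraries (difference -6.64, limma adjusted p = 2.25e-14). QPCTL, the related cyclase that modifies CD47 so that SIRPA binds it, rose with YKL in H929 at 24 h from 1.65 ± 0.263 to 3.95 ± 0.487 (limma adjusted p = 0.00403). CALR, the chaperone whose surface form favours engulfment, fell there from 1592 ± 209 to 645 ± 227 (limma adjusted p = 0.00136). SIRPA reached 1 FPKM in 1 library and was not tested.

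Of the SLAM family and its adaptors 3 of 10 were tested. CD48, a SLAM family member, fell with YKL in H929 at 24 h from 171 ± 32.5 to 72.0 ± 12.2 (limma adjusted p = 0.00214), alongside SLAMF7, and like SLAMF7 did not pass after rescaling (adjusted p = 0.188). LY9 and SLAMF6, 2 more SLAM receptors, were lower in H929 than in MM1S with DMSO at 6 h, 3.49 ± 0.950 against 23.7 ± 0.809 and 0.154 ± 0.0708 against 2.40 ± 0.132 (limma adjusted p = 2.45e-07 and 1.97e-07). SLAMF6, under 1 FPKM in H929 there, may have passed the filter on low values through MM1S alone, so its difference is a description. Of the NAD enzymes around CD38, 7 of 10 were tested. With YKL NMNAT1, which makes NAD in the nucleus, rose in H929 at 6 h from 1.498 ± 0.419 to 6.68 ± 1.62, and NAMPT, which feeds the salvage route, fell in MM1S at 6 h from 17.0 ± 1.52 to 6.80 ± 1.29 (limma adjusted p = 0.00283 and 0.00447), on both scales. NT5E (CD73), which makes adenosine downstream of CD38, rose in H929 at 24 h from 0.491 ± 0.0775 to 1.84 ± 0.793 (limma adjusted p = 0.00362). NAPRT, of a second route to NAD, stood at 1.82 ± 0.165 in H929 against 34.3 ± 8.82 in MM1S in the 6 h DMSO libraries (limma adjusted p = 1.05e-09). Of the FCRL and GPRC5 families 4 of 10 were tested, and all 4 were higher in H929 than in MM1S at both times as deposited (3 of 4 rescaled), where 36.4% of all genes were higher at 6 h and 67.9% at 24 h. FCRL2 stood at 7.36 ± 0.965 and 0.354 ± 0.213 and FCRLB at 4.67 ± 1.65 and 0.187 ± 0.0757 in H929 and MM1S at 6 h (limma adjusted p = 3.79e-10 and 1.14e-06). Both had MM1S means under 1 FPKM there and may have passed the filter on low values through H929 alone. The count of 4 and these line differences are therefore a description, since the p-values do not allow for that filter. With YKL 3 of the 4 fell in H929 at 24 h as deposited: GPRC5B, FCRLA and FCRL2, of which GPRC5B alone passed after rescaling. Of all genes, 35.4% fell there as deposited.

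The medians of these lists are given beside those of all genes, as a description. In H929 with YKL at 24 h, where the median over all genes was -0.46 as deposited, the median log2 change was -0.21 for the BAFF and APRIL list, -0.23 for the interleukin 6 list, -0.03 for the CD47 list, -0.32 for the SLAM list, -0.24 for the heparan sulfate list, -0.12 for the NAD list and -0.68 for the FCRL and GPRC5 list. In MM1S at 24 h, where it was -0.12 over all genes, the medians were 0.02 for the BAFF and APRIL list, 0.16 for the interleukin 6 list, 0.06 for the CD47 list, -0.13 for the SLAM list, -0.13 for the heparan sulfate list, 0.18 for the NAD list and -0.11 for the FCRL and GPRC5 list. At 6 h the medians over all genes were -0.06 in H929 and -0.29 in MM1S, and those of the interleukin 6 list were -0.03 and -0.15. After rescaling the medians at 24 h in H929 were 0.34 for the BAFF and APRIL list, 0.53 for the interleukin 6 list, 0.37 for the CD47 list, 0.03 for the SLAM list, 0.39 for the heparan sulfate list, 0.26 for the NAD list and -0.10 for the FCRL and GPRC5 list, against 0.13 over all genes, so that all but the FCRL and GPRC5 median turned from below to above 0 with the scale. In MM1S they were 0.30 for the BAFF and APRIL list, 0.44 for the interleukin 6 list, 0.33 for the CD47 list, 0.07 for the SLAM list, 0.08 for the heparan sulfate list, 0.46 for the NAD list and -0.17 for the FCRL and GPRC5 list, against 0.05 over all genes.

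By the pattern of rescaled values over the 24 libraries, the genes most like each member were sought among all genes tested, by Pearson's r, as a description; the points share libraries, lines and treatments. For TNFRSF13B these were QPCT (r = 0.996) and ST14 (0.995). For IL6ST they were ARL6IP5 and TBL1XR1 (both 0.98), and for SLAMF7 ACSS1 and TRIM25 (both 0.98). CD38 was most like GRIK4 (0.97) and CD44 (0.96), SDC1 like YIPF1 (0.97) and OTUD5 (0.96), and TNFRSF17 like YY1AP1 (0.94) and VPS37B (0.90). IL6R was most like TOX2 (0.93) and SLC35C1 (0.92), CD47 like RUFY3 (0.93) and USP48 (0.92), and GPRC5D like KDM7A (0.93) and PRR14L (0.92). Among the members themselves, TNFRSF13B ran with IL6ST (0.96) and SLAMF7 (0.92) and against CD38 (-0.94), while SDC1 and TNFRSF17, which gave 0.86 on the deposited scale, gave -0.06 after rescaling.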

How the data were processed

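RNA of 24 libraries was read from 3′ ends (QuantSeq), per the labels' protocols. Deposited by the authors were FPKM values, 26341 entries per library, of which 92 are ERCC spike-ins, made with HISAT2 and Cuffnorm on hg19, per the submitters' processing notes, which give no versions. Division by gene length is not suited to 3′ reads but is equal in every library. No value was 0, the lowest values lay at 0.0370 to 0.137 FPKM, and counts could not be recovered, so intervals for counting error are not given and the depth is unknown. ERCC transcripts averaging 10 FPKM or more (50 of them) had median deviations of -0.0422 to 0.0897 (log2); how the scale was set is not given in the sources used here.

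limma 3.58.1 in R 4.3.3 (trend, two-sided) was fitted on log2(FPKM + 1) with 8 group means, for the 12418 genes that reached 1 FPKM in 3 or more libraries, and tested on simulated data. Listed genes with means under 1 FPKM in 1 line, such as QPCT in H929, may have passed this filter through the other line alone. Their line differences are a description, since the p-values do not allow for that filter. Adjusted p-values are Benjamini-Hochberg over all genes of a comparison, called under 0.05. The log scale understates changes of low genes. Rescaling was by median of ratios, on reference genes whose geometric mean reached 5 FPKM. Errors are SE for log2 changes and SD for levels. Members, gene lists and tests were chosen with earlier results of these data known. The text names the 10 members and, from each list, the called genes with the smallest p, up to 3 per YKL comparison and 2 in the others, plus direct partners. Replicate numbers, which the labels do not say mark a shared batch, went together in H929 and MM1S with DMSO at 24 h alone (correlations of deviations of 0.113 to 0.202). Alternatives were rescaling, pseudocount 0.1, no filter, a filter at 5 FPKM, only the groups compared, array weights, the replicate number as a block, each library left out, and, added after seeing the data, leaving out 2 libraries with uneven spike-ins.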

Additional observations from a re-analysis of the deposited data

Results flagged for a closer look

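As deposited, no member differed in its response to YKL between lines or times past the limma threshold. After rescaling, 7 interactions did. The response of TNFRSF17 at 24 h differed between the lines by -0.69, H929 minus MM1S (log2; limma adjusted p = 0.0372), and passed in 4 of 12 fits with 1 library left out (adjusted p up to 0.0929). The responses at 24 h minus 6 h were 0.99 for SDC1 and 0.86 for IL6R in H929, and 0.93 for SDC1, 0.93 for IL6R and 0.83 for TNFRSF17 in MM1S. Each of these 5 passed in all 12 fits with 1 library left out. IL6ST in MM1S gave 0.62 (limma adjusted p = 0.0496) and passed in 2 of 12. Without the 2 libraries with uneven spike-ins the MM1S differences of TNFRSF17 and IL6ST did not pass.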

How the results depend on the processing

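Counts of members called are given here for YKL in H929 at 6 h and 24 h and in MM1S at 6 h and 24 h, where the values were 0, 1, 1 and 0. Rescaling gave 1, 3, 1 and 5, also with the 2 libraries with uneven spike-ins left out as well, and array weights gave 1, 4, 4 and 4. In MM1S at 24 h the 5 members were not the same with those libraries left out, since SLAMF7 passed in that rescaled fit alone. Without the filter on low values the H929 24 h and MM1S 6 h counts were 0. With only the groups compared in the fit the MM1S 6 h count was 2, and without the uneven libraries on the deposited scale it was 0. For H929 against MM1S at 6 h, 5 became 8 rescaled without the uneven libraries. For time in DMSO, 0 became 1 in H929 rescaled, with and without the uneven libraries, and 8 became 2 in MM1S rescaled, 1 rescaled without them and 4 with only the groups compared. For the line difference of the response at 24 h, 0 became 1 rescaled, with and without them, and 3 with array weights. For the time difference of the response, 0 became 2 in H929 rescaled, with and without them, and in MM1S 4 rescaled, 2 rescaled without them and 5 with array weights. With 1 library left out the counts ranged from 0 to 0 (H929 6 h), 0 to 2 (H929 24 h), 0 to 0 (MM1S 6 h) and 0 to 2 (MM1S 24 h) for YKL, 5 to 5 and 7 to 7 for the lines, 0 to 0 in H929 and 6 to 8 in MM1S for time, and 0 to 0, 0 to 2, 0 to 0 and 0 to 3 for the 4 interactions. A pseudocount of 0.1 and the filter at 5 FPKM kept each count within 1.5 times.

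Rescaled values that reversed were IL6R 0.46 and IL6ST 0.56 (H929 YKL 24 h), SDC1 -0.46 and CD47 -0.34 (lines, 6 h), SDC1 -0.54, SLAMF7 -1.67, CD47 -0.34 and CD48 -0.55 (lines, 24 h), FCRL2 0.16 (H929 YKL 24 h), and TNFRSF13B 0.17, CD47 0.063, IL6R 0.26, LY9 0.13 and NAMPT 0.15 (MM1S DMSO time). Without the uneven libraries the rescaled values were IL6R 0.46 and IL6ST 0.56 (H929 YKL 24 h), SDC1 -0.46 and CD47 -0.34 (lines, 6 h), SDC1 -0.55, SLAMF7 -1.24 and CD47 -0.24 (lines, 24 h), and TNFRSF13B 0.029 and IL6R 0.35 (MM1S DMSO time). A value counts as reversed where its sign turned against the deposited fit and at least 1 of the 2 fits passed. The other of the 2 values may be near 0 and need not have passed. The cause was not tested. Replicate numbers do not pair libraries in general: the correlations of deviations of 84 same-numbered pairs ran from -0.261 to 0.210 (median -0.016, 13 over 0.1). The exception was H929 against MM1S with DMSO at 24 h, where all 3 pairs were over 0.1 (0.202, 0.129 and 0.113) and the block left the count at 7, with no member's call changed. With the replicate block the MM1S DMSO time count was 7 and all other counts were unchanged. FPKM gives no depth, so values near or under 1 FPKM (FCRL5 in both lines, GPRC5D and TNFRSF13B in H929) limit what can be seen of those genes.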

Other observations

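Of 28 other plasma cell and B cell surface antigens 21 were tested. With YKL 2 rose in H929 at 6 h, 1 rose and 5 fell in H929 at 24 h, and 1 rose and 3 fell in MM1S at 6 h (limma, deposited scale). Of all genes, 1.03% rose in H929 at 6 h, 2.67% rose and 35.4% fell in H929 at 24 h, and 0.926% rose and 10.0% fell in MM1S at 6 h. After rescaling 8 rose and 1 fell in H929 at 24 h, where 20.8% of all genes rose, so that rises outnumbered falls there, unlike on the deposited scale; 5 rose and 2 fell in MM1S at 24 h, where 14.4% rose. CD70, the ligand of CD27, rose in H929 at 6 h from 7.01 ± 2.99 to 19.7 ± 0.858 FPKM (SD, n = 3; limma adjusted p = 0.0264), and TNFRSF10B, the death receptor DR5, from 8.68 ± 2.40 to 18.3 ± 4.31 (adjusted p = 0.0357). Both also rose after rescaling. The response of TNFRSF10B in H929 was lower at 24 h than at 6 h, with a difference of -1.51 (limma adjusted p = 0.0152). The H929 24 h libraries had CD320, the transcobalamin receptor, changed by -1.39, NCAM1 (CD56) by -1.15 and CD55, a brake on complement, by -0.85 (limma adjusted p = 5.43e-04, 6.59e-04 and 0.0111), and CD320 passed after rescaling as well. In MM1S at 6 h the chemokine receptor CXCR4 and the co-receptor CD28 changed by -0.83 and -0.83, and CD86, the ligand of CD28, rose by 0.68 (limma adjusted p = 0.0449, 0.0472 and 0.0471). CXCR4 did not pass after rescaling. Between the lines, CD74, the invariant chain of MHC class II, stood at 1.57 ± 1.04 FPKM in H929 against 456 ± 52.6 in MM1S in the 6 h DMSO libraries (limma adjusted p = 3.86e-14), and CD70 at 7.01 ± 2.99 and 290.1 ± 45.5 (adjusted p = 1.42e-11).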
